A study of Mus musculus with 46 samples.

Results

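Vitamin A storage and retinoid handling were followed in mouse liver through 9 genes of 55416 counted: Lrat, Rbp4, Retsat, Rdh10, Aldh1a1, Cyp26a1, Cyp26b1, Rarb and Bco1. The genes were chosen by name for their place in the retinoid pathway, with earlier results of these data known. All 9 had enough reads to be tested in each comparison. Bulk RNA libraries were made from snap-frozen livers of male mice with a NEBNext Ultra RNA kit, and 46 libraries in 10 groups were counted.

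In 8 groups the mice came from a line on C57BL/6JBomTac in which Plvap is deleted by a Cre recombinase driven by the Lrat promoter (Plvaptm1.1Salm-Tg(Lrat-cre)1Rshw), each knockout group being set against littermate controls. Whether the controls carry the Cre transgene, and how old the mice were, is not given in the sources used here. The chow groups of this line were 6 controls and 5 knockouts fasted for 12 h, and 4 controls and 4 knockouts fasted and refed. The refed mice were fasted for 10 h and refed for 2 h (a second label field gives 12 h for this fast). The diet groups, all fasted for 12 h, were 5 controls and 4 knockouts after 6 weeks on a western diet with fructose in the water, and 5 controls and 5 knockouts after 6 weeks on a high-fat diet with plain water. The last pair was 4 whole-body Cav1 knockouts (STOCK Cav1tm1Mls/J) and 4 C57BL/6N wild-type mice, all on chow and fasted for 6 h. Genotype and stock differ together in this pair and cannot be told apart. Lrat is both one of the 9 genes and the gene whose promoter drives the Cre.

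Retinol reaches the liver as retinyl ester, is passed by hepatocytes to stellate cells, and is stored there in lipid droplets after esterification by LRAT. It leaves the liver bound to the plasma carrier RBP4, which hepatocytes secrete. Within cells, dehydrogenases oxidise retinol to retinal and then to retinoic acid, the ligand of the RAR receptors, and CYP26 enzymes degrade the acid. Plvap encodes the protein of the diaphragms that span endothelial fenestrae and caveolae, and Cav1 the coat protein of caveolae.

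The targeted genes were low in the libraries labelled as knockouts. Mean Plvap was 20% of control in the fasted chow livers, 17.8% after refeeding, 18.9% on western diet and 25.3% on high-fat diet, and Cav1 was 16.5% of wild type, with no overlap between groups. Total counts per library ran from 6656342 to 23311539. The 20 stellate cell genes used as markers were all detected in each group, so that the cell type that stores vitamin A was present in these bulk samples. Fewer cells of a type and less RNA per cell cannot be told apart in such samples. Albumin mRNA moved with genotype: Alb stood at 196%, 167%, 160%, 218% and 143% of control in the fasted, refed, western diet, high-fat diet and Cav1 pairs, with no overlap in any pair. The summed level of 8 hepatocyte genes was also higher (51493 to 64198 in fasted controls and 85472 to 108072 in fasted knockouts, in CPM, a gene's counts scaled to a common library size). Alb is the most abundant of the 8 and a large part of this sum, which therefore follows it. Of the 8, Alb alone passed the test described below in the fasted and high-fat pairs, Apoa1 and Alb in the Cav1 pair, and none after refeeding or on western diet. The median log2 fold change of the 8 was 0.34, 0.27, -0.01, 0.48 and 0.18 in the order of the pairs above. The part of Alb in the results below was not tested.

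Among the 9 genes, Retsat was the one whose level changed past the test in a knockout comparison. It was lower in the fasted livers without stellate Plvap, at 56% of the control mean. Aldh1a1 was lower in the same mice without passing the test, and Lrat, Rbp4, Rdh10, Cyp26a1, Cyp26b1, Rarb and Bco1 did not pass either. A gene was called at an adjusted p under 0.05 (edgeR quasi-likelihood test with Benjamini-Hochberg adjustment over all genes tested). In the fasted pair 1 of the 9 was called, lower, where 2.25% of all 12840 genes tested were called and 1.12% were called lower. None of the 9 was called after refeeding (0.0227% of all genes), on western diet (0.0148%), on high-fat diet (0.281%) or in the Cav1 pair (4.68%). In these 4 pairs 1024, 1325, 1873 and 2415 of all genes had an unadjusted p under 0.05. Over the 9 genes the median log2 fold change was -0.02 in the fasted pair, 0.08 after refeeding, -0.11 on western diet, 0.25 on high-fat diet and -0.33 in the Cav1 pair, and over all genes it was -0.01, 0.01, -0.02, 0.01 and 0.02.

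**Figure D1:**
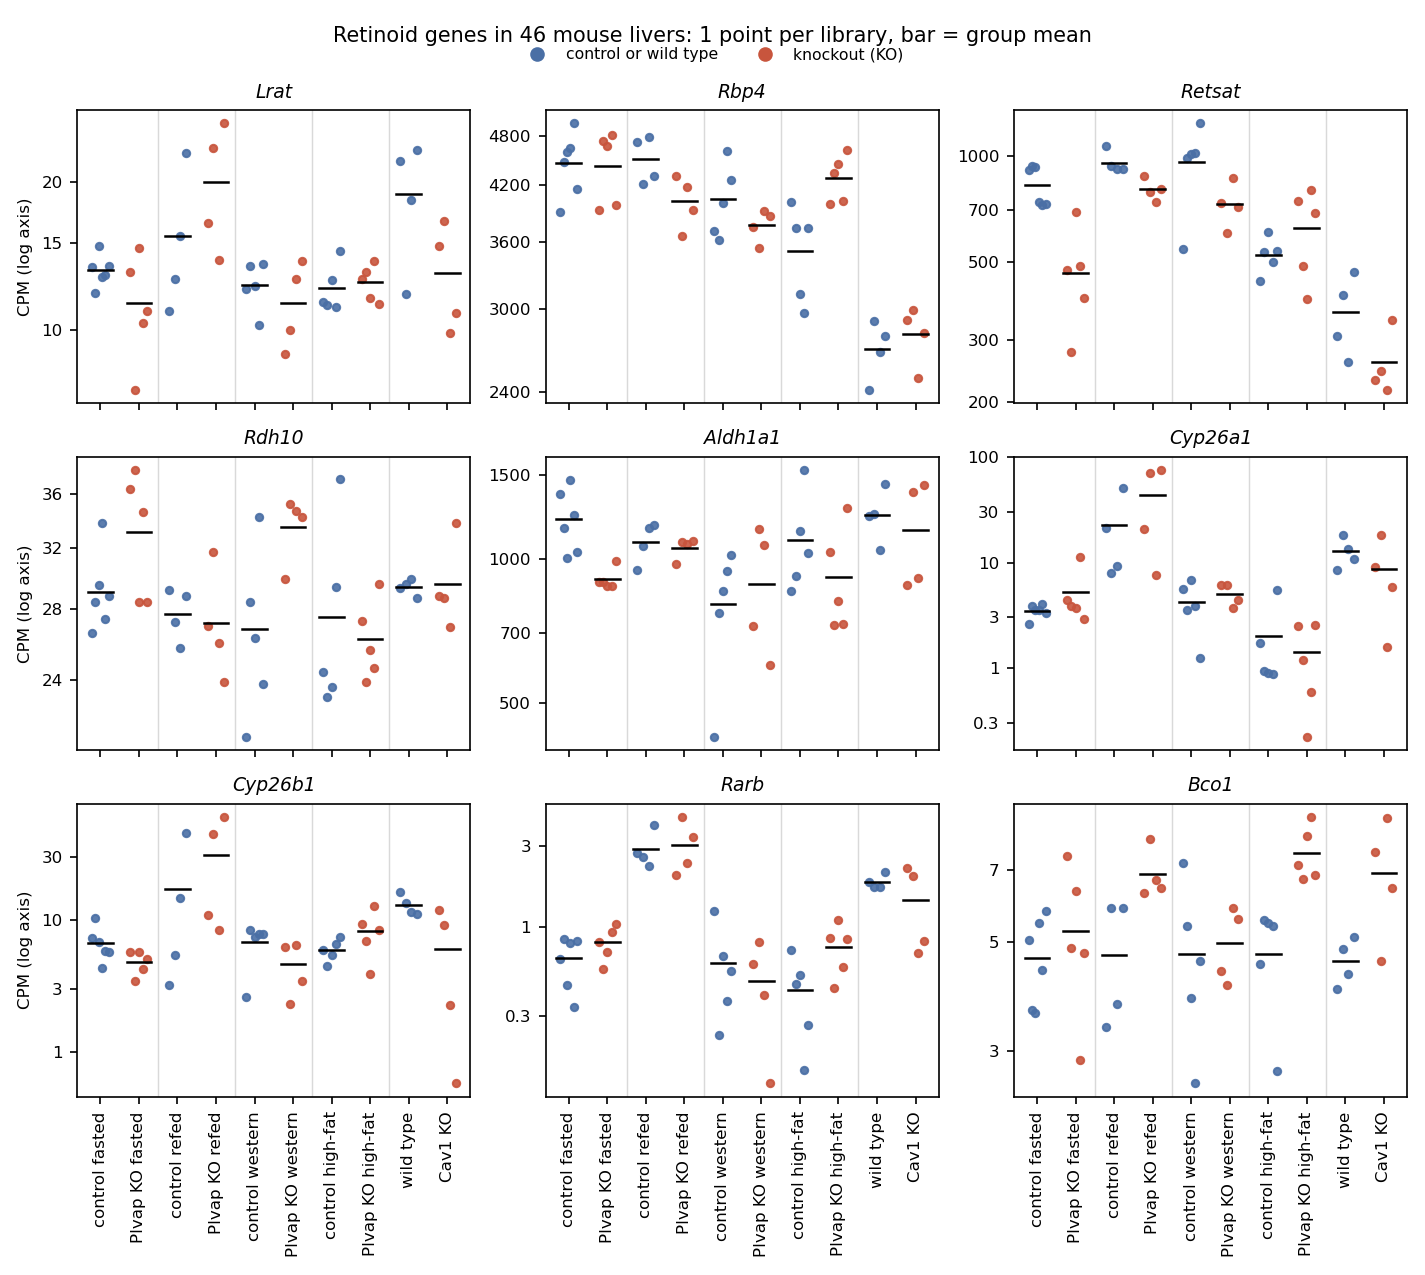
Level of the 9 retinoid genes in each of the 46 livers, in CPM on log axes that differ between panels, with 1 point per library, blue for control or wild type and red for knockout, and a bar at the group mean. Retsat in the fasted pair is lower in all 5 knockouts than in any control, and Cyp26a1 and Cyp26b1 spread widely in the refed livers.

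Per kilobase of exon, a scale on which genes can be compared, the secreted carrier was by far the most abundant of the 9 transcripts. The mean of the 10 group means was 2868 CPM per kilobase for Rbp4, 210 for Aldh1a1 and 184 for Retsat. The remaining transcripts were scarce, with 6.97 for Rdh10, 5.5 for Cyp26a1, 2.62 for Lrat, 2.16 for Bco1, 1.97 for Cyp26b1 and 0.247 for Rarb. The group means of Rdh10 differed least among the 10 groups, by a factor of 1.28 between the highest and the lowest. Those of Cyp26a1 differed most, by a factor of 31.2, ahead of Rarb (7.15), Cyp26b1 (6.78) and Retsat (3.7). The groups lie in 4 separate count tables, and in these ratios an effect of the table cannot be told apart from one of the condition.

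Storage comes first. Lrat (ENSMUSG00000028003; GRCm39 chromosome 3, 82799886 to 82811280, minus strand) encodes lecithin retinol acyltransferase, which makes the retinyl esters of stellate cell droplets. In the fasted pair Lrat stood between 11.9 and 14.8 CPM in the 6 controls, with a median of 13.1, and at 13.1, 7.53, 14.7, 10.3 and 10.9 in the 5 knockouts. Knockout libraries B, D and E lay below the lowest control, and A and C lay within the control range. The mean was 13.2 ± 0.981 CPM (SD, n = 6) in controls and 11.3 ± 2.74 (n = 5) in knockouts, a log2 fold change of -0.23 ± 0.14 (SE; 95% interval -0.53 to 0.06; edgeR adjusted p = 0.404).

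After refeeding the difference had the other sign. Controls had 10.9, 12.7, 15.5 and 23.0 CPM and knockouts 16.5, 23.5, 13.9 and 26.4, which overlap (0.38 ± 0.25; interval -0.18 to 0.94; edgeR adjusted p = 0.731). On western diet Lrat was 12.3 ± 1.35 CPM in 5 controls and 11.3 ± 2.27 in 4 knockouts, and on high-fat diet 12.1 ± 1.45 and 12.5 ± 1.04 (n = 5 each). The high-fat interval was the narrowest of the 5, -0.22 to 0.30 on the log2 scale. In the Cav1 pair wild types had 22.1, 11.8, 18.4 and 23.3 CPM and knockouts 14.8, 16.7, 9.86 and 10.8. In Lrat 3 of the 4 wild types were above all knockouts, and wild type B was not (-0.52 ± 0.24; interval -1.05 to 0.01; edgeR adjusted p = 0.282). The Lrat difference in the fasted pair less that in the refed pair came to -0.62 ± 0.25, with an edgeR adjusted p of 0.524 and 0 genes called in that comparison (1192 at an unadjusted p under 0.05).

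Lrat was then set against other stellate cell genes, to ask whether it moved apart from its cell type. For each library the log2 ratio of Lrat to the summed CPM of 20 stellate genes was taken. In the fasted pair the ratio was -6.27 ± 0.22 in controls and -6.72 ± 0.39 in knockouts, a difference of -0.45 with a two-sided exact permutation p of 0.0433, which became 0.214 after adjustment over the 5 pairs. Without knockout C the adjusted p was 0.0238. The refed difference was 0.17 (exact permutation p = 0.571), the western diet difference -0.21 (exact permutation p = 0.222) and the high-fat difference -0.03 (exact permutation p = 0.706). The Cav1 difference was -0.58 (exact permutation p = 0.0857), in a design whose smallest possible p is 0.0286. The stellate sum itself ran from 848 to 1177 CPM in fasted controls and from 1096 to 1275 in fasted knockouts. Cxcl12, a chemokine, makes up 32.4% to 41.1% of it. With the mean log2 CPM of the list in place of the sum, so that no gene outweighs another, the fasted difference was -0.30 with an adjusted exact permutation p of 0.214.

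Rbp4 (ENSMUSG00000024990; chromosome 19, 38105077 to 38113729, minus strand), the retinol carrier of plasma, differed little. The fasted controls lay between 3904 and 4964 CPM, with a median of 4534, and the knockouts had 3922, 4732, 4671, 4806 and 3974, inside that range. The interval of the fasted log2 difference was -0.23 to 0.20. Refed controls had 4725, 4216, 4789 and 4303 CPM and refed knockouts 4309, 3656, 4183 and 3926, so that 3 of 4 knockouts were below the lowest control. On high-fat diet the order turned, with 4012, 3739, 3129, 2966 and 3741 CPM in controls and 3987, 4339, 4448, 4026 and 4612 in knockouts. Of the 5 high-fat knockouts 4 were above all controls (0.29 ± 0.11; interval 0.06 to 0.51; edgeR adjusted p = 0.232). On western diet the controls had 3712, 3623, 3997, 4606 and 4256 CPM and the knockouts 3752, 3545, 3918 and 3859, and the Cav1 pair had 2695 ± 211 in wild type and 2806 ± 222 in knockout. The Plvap effect on western diet less that on high-fat diet was -0.39 ± 0.16 for Rbp4 (edgeR adjusted p = 0.369), in a comparison in which 0% of genes were called (1546 at an unadjusted p under 0.05).

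Retsat (ENSMUSG00000056666; chromosome 6, 72575458 to 72585408, plus strand) encodes retinol saturase, which reduces retinol to dihydroretinol and so takes it out of the path to retinoic acid. In the fasted controls it stood between 727 and 938 CPM, with a median of 826. The fasted knockouts had 474, 277, 691, 486 and 395 CPM, all below the lowest control. Knockout C, at 691, came closest to the controls and B, at 277, lay farthest away. The knockout mean of 465 ± 151 (SD, n = 5) was 56% of the control mean (SD 107, n = 6), a log2 fold change of -0.84 ± 0.18 (95% interval -1.23 to -0.46; edgeR adjusted p = 0.0303). Leaving out 1 library at a time kept the log2 fold change between -1.03 and -0.70, but the adjusted p rose above 0.05 without control A (0.0654), B (0.0703) or C (0.0716) and without knockout A (0.0696), D (0.0669) or E (0.0838). Of the 9 genes 2, Retsat and Aldh1a1, had fasted groups without overlap, as did 2.91% of all genes tested. Of 8 genes that mark other tissues 3 were tested and Fabp2, an intestinal fatty acid binding protein, fell in the same pair (-1.18; edgeR adjusted p = 0.0323). The summed level of these 8 genes was 220 to 277 CPM in controls and 73.1 to 189 in knockouts, with Cpa1 at 0 in both groups. Of 12 liver endothelial genes Lyve1, a hyaluronan receptor, rose (0.64; edgeR adjusted p = 0.0347), and their sums overlapped (335 to 389 and 304 to 366 CPM). The part of these genes in the Retsat result was not tested.

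The refed livers had the same order with a smaller gap. Retsat was 1064, 935, 915 and 915 CPM in the controls and 878, 792, 741 and 808 in the knockouts. The groups did not overlap, as in 5.4% of all genes tested, and the knockout mean was 84.1% of control (-0.24 ± 0.11; interval -0.49 to -0.00; edgeR adjusted p = 0.637). On western diet the controls had 543, 988, 1010, 1021 and 1237 CPM and the knockouts 736, 604, 867 and 715. Control A, at 543, was below all 4 knockouts and the other controls were above them (-0.40 ± 0.21; edgeR adjusted p = 0.544). On high-fat diet the sign was positive, with 441, 534, 607, 501 and 538 CPM in controls and 747, 488, 393, 801 and 687 in knockouts (0.25 ± 0.20; interval -0.15 to 0.66; edgeR adjusted p = 0.594). Here 3 knockouts were above all controls and 1 was below them.

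Cav1 wild types had Retsat between 261 and 467 CPM, with a median of 356, and the Cav1 knockouts had 232, 246, 217 and 343. Of the 4 knockouts 3 were below the lowest wild type, and the mean was 72.2% of wild type (-0.46 ± 0.20; interval -0.90 to -0.02; edgeR adjusted p = 0.254). Retsat was 1 of 2 of these genes that were called in this pair when no filter on low counts was applied (edgeR adjusted p = 0.00175), the other being Lrat (edgeR adjusted p = 0.00523). Without the filter 1279 of all genes were called in this pair, against 607 with it.

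Whether the Plvap effect on Retsat differed between the fasted chow pair and the other Plvap pairs was tested directly. The refed pair differs from it in feeding, and the 2 diet pairs, also fasted for 12 h, differ in diet. Each contrast joins separate count tables, so that an effect of the experiment cannot be told apart from one of feeding or diet. The fasted effect less the high-fat effect was -1.09 ± 0.26, with an edgeR adjusted p of 0.205. That comparison had 0 calls among all genes (1164 at an unadjusted p under 0.05). DESeq2 called Retsat there with an adjusted p of 0.0486 and limma-voom with 0.0421. The fasted effect less the refed effect was -0.60 ± 0.27 (edgeR adjusted p = 0.566), and less the western diet effect -0.45 ± 0.27 (edgeR adjusted p = 1), with 0 genes called in each (1192 and 437 at an unadjusted p under 0.05). Averaged over the 4 Plvap experiments, the log2 difference was -0.31 ± 0.10 (edgeR adjusted p = 0.0541). The average called 5.58% of all genes and none of the 9. DESeq2 gave an adjusted p of 0.0343 for Retsat there and limma-voom 0.0155. On the same average 3 of 5 tested genes of other tissues fell, Fabp2 (-0.74; edgeR adjusted p = 0.00239) and the adipocyte markers Adipoq (-2.59; edgeR adjusted p = 0.0402) and Plin1 (-4.01; edgeR adjusted p = 0.0336), both from group means of at most 1.54 CPM. Lyve1 rose (0.62; edgeR adjusted p = 0.000218). The part of these genes was not tested.

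Diet gave the other call. In control livers Retsat was higher on western than on high-fat diet, 960 ± 254 CPM against 524 ± 60.1 (n = 5 each), or 183%. Of the 5 western diet controls 4 were above all high-fat controls, and control A was not. The log2 difference was 0.86 ± 0.20 (edgeR adjusted p = 0.0221), in a comparison that called 2.09% of all genes (1.1% higher) and 1 of the 9. The adjusted p rose to 0.0677 without the filter on low counts, and was above 0.05 in 5 of the 10 fits that left out 1 library (western C, D or E, or high-fat B or D), with a highest value of 0.0664. In the knockouts the same diet difference was 0.21 ± 0.21 (edgeR adjusted p = 0.544). The difference between these 2 diet effects, -0.65 ± 0.29, had an edgeR adjusted p of 0.397.

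**Figure D2:**
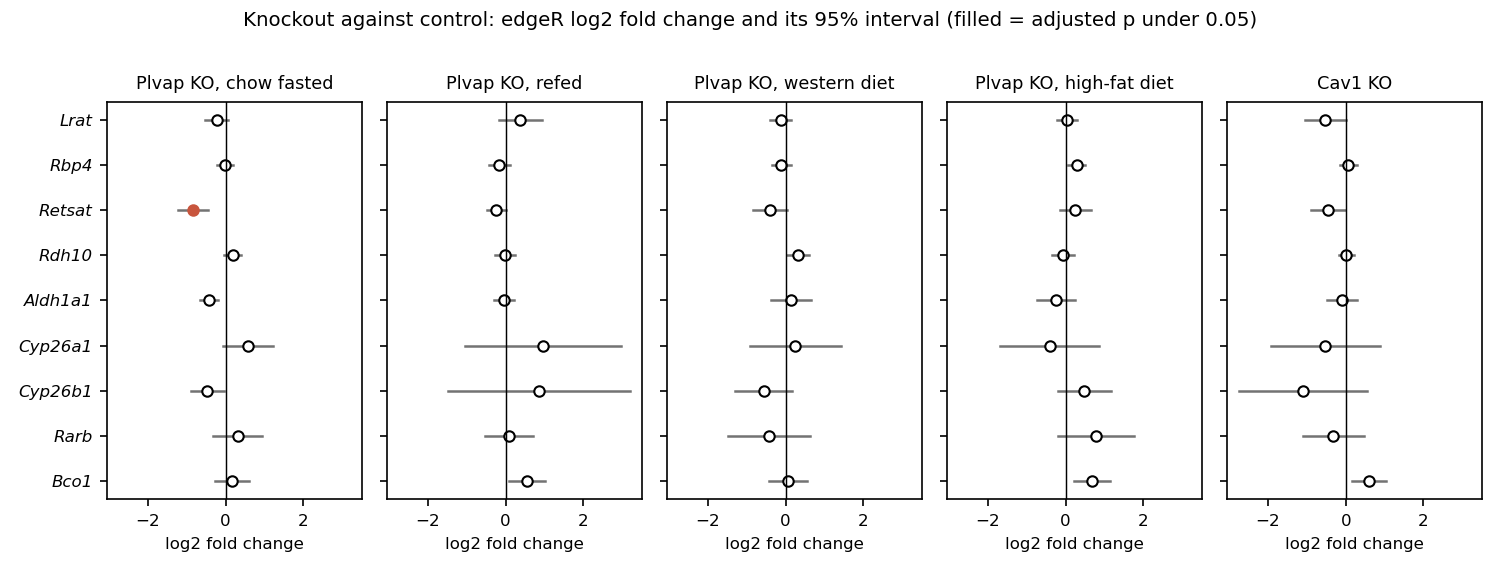
Log2 fold change of the 9 genes in each of the 5 knockout comparisons, as points with 95% intervals from the edgeR fits, a line at 0 and a filled point for an adjusted p under 0.05. The fasted Retsat interval, -1.23 to -0.46, is the one that belongs to a call, and the refed intervals of Cyp26a1 and Cyp26b1 are the widest for those genes.

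Rdh10 and Aldh1a1 lie on the way from retinol to retinoic acid. Rdh10 (ENSMUSG00000025921; chromosome 1, 16175998 to 16203958, plus strand), a dehydrogenase that makes retinal from retinol, stood between 26.6 and 33.8 CPM in fasted controls, with a median of 28.6, and at 36.4, 37.9, 28.4, 34.6 and 28.4 in fasted knockouts. Of these 5, 3 were above all controls (0.18 ± 0.10; interval -0.03 to 0.39; edgeR adjusted p = 0.352). On western diet the controls had 21.2, 28.4, 26.3, 34.2 and 23.8 CPM and the knockouts 29.9, 35.2, 34.7 and 34.2, which again overlap at 1 control (0.32 ± 0.14; interval 0.03 to 0.61; edgeR adjusted p = 0.464). The refed means were 27.7 ± 1.57 and 27.2 ± 3.3, the high-fat means 27.5 ± 5.97 and 26.2 ± 2.28, and the Cav1 pair had 29.4 ± 0.488 and 29.5 ± 2.97.

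Aldh1a1 (ENSMUSG00000053279; chromosome 19, 20470079 to 20620829, plus strand) oxidises retinal to retinoic acid. Its closest relative, Aldh1a7, is similar in sequence, and how the counting shared reads between them is not given in the sources used here, so its level is uncertain to that extent. Fasted controls had 1005 to 1465 CPM with a median of 1200, and fasted knockouts 898, 896, 878, 880 and 991, all below the lowest control. The knockout mean was 74.9% of control (-0.42 ± 0.11; interval -0.65 to -0.19; edgeR adjusted p = 0.0516). The gene was called under 5 alternatives, with adjusted p between 0.00322 (DESeq2) and 0.0495 (a filter at 1 CPM). Aldh1a7 itself had -0.52 in the same pair (edgeR adjusted p = 0.0703).

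In the other pairs Aldh1a1 did not separate. Refed controls had 949, 1065, 1163 and 1182 CPM and refed knockouts 976, 1086, 1077 and 1094. The western diet means were 805 ± 232 in controls and 889 ± 268 in knockouts, with control A the lowest of the 46 livers. On high-fat diet they were 1100 ± 268 and 920 ± 238, and in the Cav1 pair 1241 ± 159 and 1152 ± 294.

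Clearance and response were read from Cyp26a1, Cyp26b1 and Rarb. The CYP26 enzymes hydroxylate retinoic acid, and Cyp26a1 and the receptor gene Rarb are classical targets that retinoic acid induces through direct repeats in their promoters. Windows of 300 bases (250 before and 50 after the start) from RefSeq on GRCm38.p6, a build other than that of the counts, were found for 8 of the 9 genes, in 10 windows. They were searched on both strands for pairs of GGTCA or GTTCA in the same orientation, 2 bases apart (DR1, for instance GGTCANNGGTCA), 3 apart (DR2, GGTCANNNGGTCA) or 6 apart (DR5, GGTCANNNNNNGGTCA), spacings that do not overlap. Of 32851 such windows 0.402% hold a DR1, 0.399% a DR2 and 0.247% a DR5. The 120 bases just before the start are printed for Cyp26a1 and Rarb, which hold a DR5, in capitals. They are also printed for Cyp26b1 and Lrat, which hold none of the 3 motifs. Both were highest in the same refed libraries as Cyp26a1 and Rarb. The printed stretches read 5′ to 3′ in the direction of the gene.
Cyp26a1, chr19:37697688-37697807, plus strand: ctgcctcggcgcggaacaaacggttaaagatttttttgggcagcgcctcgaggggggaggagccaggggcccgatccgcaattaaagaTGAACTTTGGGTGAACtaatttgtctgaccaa
Rarb, chr14:16575477-16575596, minus strand: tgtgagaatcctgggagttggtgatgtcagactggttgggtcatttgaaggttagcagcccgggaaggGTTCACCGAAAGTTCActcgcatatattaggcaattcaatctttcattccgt
Cyp26b1, chr6:84593811-84593930, minus strand: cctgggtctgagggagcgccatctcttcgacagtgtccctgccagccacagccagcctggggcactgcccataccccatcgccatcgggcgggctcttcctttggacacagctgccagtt
Lrat, chr3:82903975-82904094, minus strand: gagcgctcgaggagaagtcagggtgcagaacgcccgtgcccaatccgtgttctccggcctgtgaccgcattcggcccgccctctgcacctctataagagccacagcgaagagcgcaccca

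The Cyp26a1 match lies 32 to 17 bases before the start and reads on the opposite strand, and the Rarb match lies 52 to 37 bases before it. Bco1 holds a DR1, TGACCTTTGACC on the opposite strand, 56 to 45 bases before its start. A match is a string of letters and not a measured site, and its absence says nothing beyond this window.

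Cyp26a1 (ENSMUSG00000024987; chromosome 19, 37686246 to 37689984, plus strand on GRCm39) had the widest range of group means among the 9. Fasted controls had 2.62 to 4.03 CPM with a median of 3.52, and fasted knockouts 4.38, 3.89, 3.71, 11.2 and 2.89, of which D stands apart (0.58 ± 0.30; interval -0.06 to 1.22; edgeR adjusted p = 0.337). Without knockout D the difference was 0.09 (edgeR adjusted p = 0.861). Refed controls had 21.5, 7.87, 9.31 and 51.3 CPM and refed knockouts 20.7, 71.1, 7.62 and 75.6. The refed genotypes overlap (0.97 ± 0.86; interval -1.05 to 2.98; edgeR adjusted p = 0.787). All 8 refed libraries were above all fasted controls, but fasted knockout D was above refed controls B and C and refed knockout C. Refed and fasted livers lie in separate count tables, so that feeding and table cannot be told apart. The share of all genes that separate in this way was not computed. On western diet it was 4.22 ± 2.14 CPM in controls and 5.07 ± 1.19 in knockouts. On high-fat diet the level was low, with 1.72, 0.935, 0.897, 0.873 and 5.48 in controls and 2.48, 1.18, 0.221, 0.584 and 2.54 in knockouts. The high-fat log2 difference of -0.41 turned to 0.40 without control E. Cav1 wild types had 8.46, 18.4, 13.5 and 10.7 CPM and knockouts 9.08, 18.4, 1.57 and 5.91.

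Between diets the knockouts separated in Cyp26a1: the 4 on western diet had 6.08, 6.05, 3.73 and 4.41 CPM and all 5 on high-fat diet had less. The mean was 362% of the high-fat mean (1.75 ± 0.59 on the log2 scale; edgeR adjusted p = 0.0702). DESeq2 (adjusted p = 0.0409) and limma-voom (adjusted p = 0.0424) called it. In that comparison 8.45% of all genes were called and none of the 9. The groups also did not overlap in Rbp4 (88% of the high-fat mean), Rdh10 (128%) and Bco1 (65.6%), which makes 4 of the 9 genes beside 12.9% of all genes tested. Cell type markers moved in this comparison too: 5 of 12 liver endothelial genes were called lower on western diet (Dnase1l3, Kdr, Clec4g, Stab1 and Oit3; median of the list -0.39), as were the stellate genes Vipr1 and Ecm1 (2 of 20; median -0.36), beside a median of -0.04 over all genes. The endothelial sum was 289 to 325 CPM on western and 345 to 454 on high-fat diet, and the stellate sum 895 to 1111 and 982 to 1093. Of the genes of other tissues Fabp2 was higher (1.45; edgeR adjusted p = 0.0024) and Cela1 lower. The part of these markers was not tested. In controls the diet difference of Cyp26a1 was 1.1 ± 0.57 (edgeR adjusted p = 0.381).

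Cyp26b1 (ENSMUSG00000063415; chromosome 6, 84548396 to 84570890, minus strand), the second retinoic acid hydroxylase, had 4.35 to 10.3 CPM with a median of 6.33 in fasted controls and 5.74, 3.48, 5.7, 4.29 and 5.04 in fasted knockouts (-0.48 ± 0.20; interval -0.90 to -0.05; edgeR adjusted p = 0.225). Refed controls had 3.21, 5.43, 14.8 and 46 CPM and refed knockouts 10.9, 45.4, 8.39 and 60.7 in a wide spread in both groups (0.87 ± 0.99; interval -1.48 to 3.21; edgeR adjusted p = 0.845). On western diet it was 6.83 ± 2.39 CPM in controls and 4.62 ± 2.07 in knockouts, and on high-fat diet 5.99 ± 1.09 and 8.31 ± 3.28. Opposite signs on the 2 diets gave a difference between the effects of -1.06 ± 0.48, with an edgeR adjusted p of 0.413. Cav1 wild types had 16.4, 13.4, 11.6 and 11.2 CPM and knockouts 11.9, 9.27, 2.27 and 0.578. The knockout mean was 45.6% of wild type, and knockouts C and D were far below the rest (-1.1 ± 0.70; interval -2.75 to 0.55; edgeR adjusted p = 0.43).

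Rarb (ENSMUSG00000017491; chromosome 14, 5650540 to 6038924, plus strand), a receptor for retinoic acid, was the scarcest of the 9. Fasted controls had 0.342 to 0.858 CPM with a median of 0.733, and fasted knockouts 0.821, 0.567, 0.713, 0.938 and 1.05. Refed controls had 2.72, 2.59, 2.3 and 4.0 CPM and refed knockouts 2.03, 4.45, 2.38 and 3.37. All refed livers were above all chow livers fasted for 12 h, in tables whose difference and feeding state cannot be told apart. The share of all genes that separate between these tables was not computed, so whether Rarb is unusual in this is not known. The refed genotypes overlapped (0.08 ± 0.28; edgeR adjusted p = 0.958). On high-fat diet the means were 0.428 ± 0.23 in controls and 0.768 ± 0.259 in knockouts (0.77 ± 0.47; interval -0.20 to 1.75; edgeR adjusted p = 0.484). On western diet they were 0.616 ± 0.39 and 0.486 ± 0.297. Of the Cav1 mice, wild types had 1.84, 1.73, 1.72 and 2.12 CPM and knockouts 2.24, 1.99, 0.705 and 0.835, and the 2 low knockouts, C and D, are those low in Cyp26b1 and lowest in Cyp26a1 and Lrat.

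The refed livers showed joint movement in their highest libraries, though not in all libraries. Control D was the highest control in Cyp26a1, Cyp26b1, Lrat and Rarb, and knockouts B and D were the highest 2 knockouts in all 4 genes. Control A, however, was above controls B and C in Cyp26a1 and Rarb and below them in Cyp26b1 and Lrat. Within a replicate letter the 2 genotypes lay close in some pairs and far apart in others: Cyp26a1 was 21.5 and 20.7 CPM in letter A, and 7.87 and 71.1 in letter B. Leaving out 1 library moved the refed log2 difference of Cyp26b1 between 0.33 and 2.01.

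**Figure D3:**
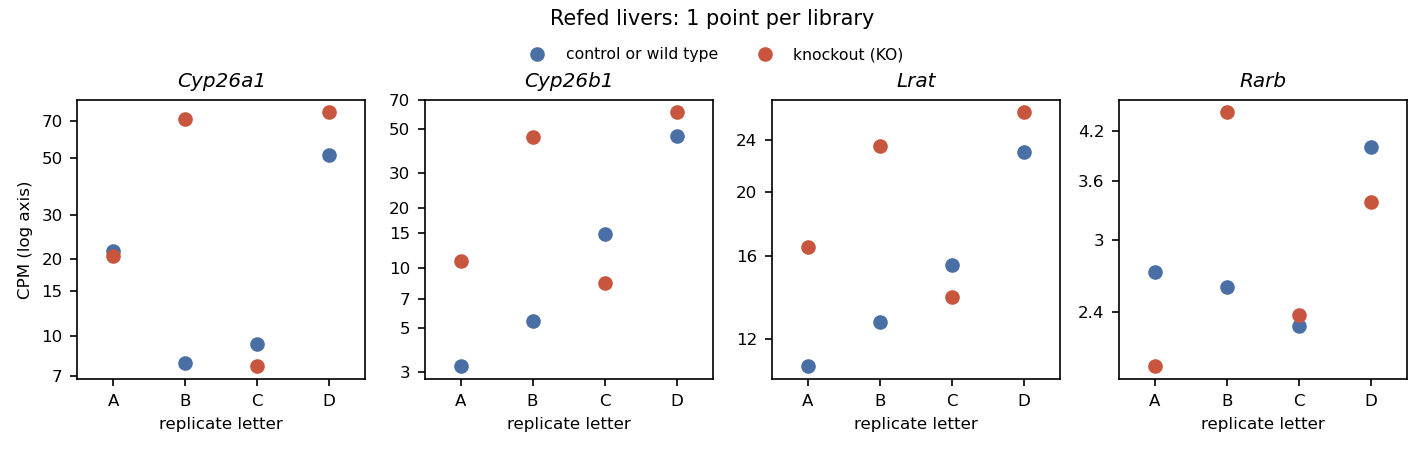
Cyp26a1, Cyp26b1, Lrat and Rarb in the 8 refed livers, in CPM on log axes, by replicate letter, with blue for control and red for knockout. Letter D is high in both genotypes for all 4 genes, letter C is low for Cyp26a1 in both, and letter B is high in the knockout and low in the control for Cyp26a1 and Cyp26b1.

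Across all 46 livers, after the mean of each group was taken off, Lrat and Cyp26b1 had the highest correlation of any 2 of the 9 genes (Pearson r = 0.64 of log2 CPM). Cyp26a1 and Cyp26b1 had 0.48, Cyp26a1 and Rarb 0.42, Retsat and Aldh1a1 0.40, and Rbp4 and Bco1 -0.51. These are descriptions without a test, over libraries that share tables, depth and scaling. Among 12277 genes, those whose pattern was most like that of Retsat included Cpt2 (0.84), which serves the import of fatty acids into mitochondria, and Acaa1b (0.83), a peroxisomal thiolase. For Lrat the 3 most alike were Cyp26b1 (0.64), Eps8 (0.58) and Map3k13 (0.53), and for Cyp26b1 they were Ehd3 (0.69), Ap1g1 (0.65) and Lrat (0.64). Aldh1a1 was most like Fitm1 (0.79), Bphl (0.76) and Nr1i3 (0.73), the last of which encodes the nuclear receptor CAR. Rbp4 was most like Aup1 (0.72), Dohh (0.72) and Phyh (0.68), and Rdh10 most like Lactb (0.73), Tmem267 (0.71) and Hmgb1 (0.70). Cyp26a1 went with Dync1i2 (0.61), Sqor (0.58) and Pgap3 (0.58), and Rarb with Anapc5 (0.62), Ddx59 (0.57) and Terf2 (0.55). Bco1 went with the collagen genes Col3a1 and Col4a2 and the kinase gene Ckb (0.67 each).

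Bco1 (ENSMUSG00000031845; chromosome 8, 117822593 to 117860459, plus strand) encodes the oxygenase that splits beta-carotene into retinal. Its knockout means were above the control means in all 5 pairs, and none was called. On high-fat diet the controls had 4.5, 5.52, 5.46, 5.38 and 2.74 CPM and the knockouts 7.16, 6.7, 8.18, 8.95 and 6.84, with no overlap, as in 3.42% of all genes tested, and a mean at 160% of control (0.67 ± 0.22; interval 0.22 to 1.13; edgeR adjusted p = 0.17). After refeeding the controls had 3.35, 5.84, 3.74 and 5.85 CPM and the knockouts 6.27, 8.09, 6.66 and 6.41, again without overlap, at 146% (0.55 ± 0.21; interval 0.08 to 1.02; edgeR adjusted p = 0.596). Cav1 wild types had 4.01, 4.84, 4.29 and 5.12 CPM and Cav1 knockouts 7.61, 4.57, 8.92 and 6.42, of which 3 were above all wild types (0.60 ± 0.20; edgeR adjusted p = 0.144).

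The fasted and western diet pairs overlapped in Bco1. The fasted means were 4.64 ± 0.93 in controls and 5.25 ± 1.74 in knockouts, and the western diet means 4.72 ± 1.73 and 4.96 ± 0.874. Over the 4 Plvap experiments the average log2 difference of Bco1 was 0.37 ± 0.12 (edgeR adjusted p = 0.0537). Its adjusted p was 0.0368 with DESeq2, 0.0215 with limma-voom and 0.0302 without the filter on low counts. On the same average Lrat had 0.02 ± 0.09 (edgeR adjusted p = 0.939) and Aldh1a1 -0.14 ± 0.10 (edgeR adjusted p = 0.443).

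The rest of the pathway was read from lists of genes by role. In the fasted pair, of 11 genes of retinyl ester synthesis and hydrolysis 9 were tested and none was called. Of 19 genes that interconvert retinol and retinal 16 were tested, with Rdh16f2 higher and Rdh16 lower. Of 6 that oxidise retinal to retinoic acid 4 were tested, and Aox1 was lower. None was called of 2 tested for clearance and carotenoid cleavage or of 5 receptor genes. The median log2 fold changes of these 5 lists lay between -0.41 (oxidation to retinoic acid) and 0.08 (interconversion), beside -0.01 over all genes. After refeeding none was called in these lists, and on each of the diets 1 was, Rdh16f2.

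Rdh16f2, of the Rdh16 family of retinol and steroid dehydrogenases, went from between 92.6 and 177 CPM (median 143) in fasted controls to 313, 395, 271, 309 and 345 in fasted knockouts (1.23 ± 0.14; edgeR adjusted p = 0.000582). It rose on high-fat diet, from 97.1 ± 21.3 to 218 ± 28.3 CPM (1.17 ± 0.18; edgeR adjusted p = 0.0125), and on western diet, from 78.5 ± 24.7 to 177 ± 28.4 (1.16 ± 0.19; edgeR adjusted p = 0.0413). The western diet call was lost in 7 of 9 fits without 1 library (any of knockouts A to C and of controls B to E), and over the 9 fits the adjusted p ran from 0.000453 to 0.307. It was also lost with the replicate block (adjusted p = 0.113) and with only the compared groups fitted (adjusted p = 0.359). Refed controls had 65.4, 81.7, 94.0 and 75.2 CPM and knockouts 165, 149, 183 and 134, without overlap (1.01; edgeR adjusted p = 0.0656, and 0.00882 with the replicate letter as a block). Rdh16f2 in the Cav1 pair was 73.9 ± 15.8 and 72.1 ± 22.1 (-0.02; edgeR adjusted p = 0.973). Rdh16, which is similar in sequence, fell in the fasted pair from 106 ± 12.6 to 79.3 ± 6.83 CPM (-0.43 ± 0.09; edgeR adjusted p = 0.0288). That call was lost without control B or C or knockout A, B, D or E, with adjusted p up to 0.0743. Reads of such near copies may be split in ways that the counts do not show.

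Aox1, an aldehyde oxidase that can act on retinal, fell in the fasted pair from 50.8 ± 12.7 to 31.1 ± 3.75 CPM, although the groups overlap (-0.72 ± 0.16; edgeR adjusted p = 0.0324). The fasted call was lost without the same 6 libraries, with adjusted p up to 0.0939. Aox1 fell in the Cav1 pair from 107 ± 15.5 to 64 ± 7.06 (-0.73 ± 0.12; edgeR adjusted p = 0.00691). Other genes called in that pair, all higher, were Scarb1, a lipoprotein receptor that also takes up carotenoids (0.46; edgeR adjusted p = 0.0299), Lpl, lipoprotein lipase (1.93; edgeR adjusted p = 0.0153), Rarres1 (0.86; edgeR adjusted p = 0.0311), and Cyp2c39 (5.48; edgeR adjusted p = 0.0029). Cyp2c39, a cytochrome of a family of close copies, went from 1.44 to 64.9 CPM between the 2 stocks.

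On the average over the 4 Plvap experiments further retinoid genes were called. Higher were Rdh16f2, Ttr, the plasma partner of RBP4 (0.27; edgeR adjusted p = 0.0149), Scarb1 (0.27; edgeR adjusted p = 0.0172) and Rdh5 (0.34; edgeR adjusted p = 0.0102). Lower were Rdh16 (-0.41 ± 0.08; edgeR adjusted p = 0.000479), Aox1 (-0.41 ± 0.09; edgeR adjusted p = 0.00352), Dgat1, which can esterify retinol (-0.16; edgeR adjusted p = 0.0215), and Aldh1a7 (-0.28; edgeR adjusted p = 0.0093). Western against high-fat diet called Lipa higher (0.46; edgeR adjusted p = 0.0297) and Adh4 (-0.91; edgeR adjusted p = 0.00845) and Aox3 (-0.83; edgeR adjusted p = 0.0127) lower in controls, and Nrip1 higher in knockouts (0.55; edgeR adjusted p = 0.0255).

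**Figure D4:**
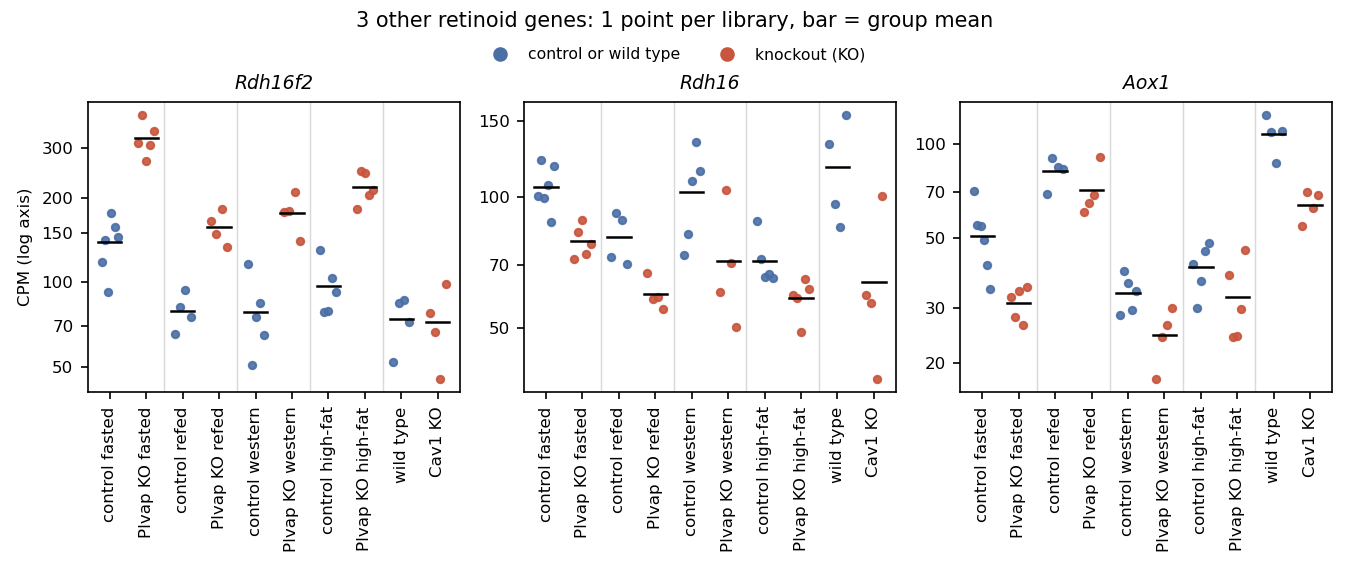
Rdh16f2, Rdh16 and Aox1 in each of the 46 livers, in CPM on log axes, with 1 point per library, blue for control or wild type, red for knockout, and a bar at the group mean. Rdh16f2 is higher in all fasted knockouts, 271 CPM and above, than in any fasted control, and does not separate in the Cav1 pair.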

How the data were processed

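The deposited tables hold raw counts per gene; per the submitters' processing notes the authors used STAR 2.7.8a on GRCm39 and featureCounts 2.0, with quality control by FastQC 0.11.9 and MultiQC 1.10.1. Strand setting and annotation release are not given in the sources used here. The gene coordinates and exon length (unit other) come from the deposited tables, per the file headers. Symbols were matched from a GRCm38 gene table for 52083 of 55416 genes, and the rest held 0.764% of counts. No 2 libraries of a group were identical (85 pairs).

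Each of the 4 tables was fitted separately with edgeR 4.0.16 (R 4.3.3): TMM scaling, filterByExpr with a minimum count of 10 and a minimum total of 15, robust quasi-likelihood test, Benjamini-Hochberg adjustment over all genes tested, and calls under 0.05. The 4 diet groups shared 1 fit, and the Plvap effects were averaged and compared in a fit over the 38 Plvap-line libraries. CPM levels were scaled by TMM over all 46 libraries. Intervals (95%) used the fit's degrees of freedom. Lrat ratios used a pseudocount of 0.5 CPM and an exact permutation test. The fits were tested on simulated counts.

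The 9 genes and the gene lists were chosen with earlier results of these data known. All 9 are named in each comparison, with up to 4 called genes of a list with the smallest p, and 3 genes of most similar pattern. Some results that this rule covers are not reported here. The labels name separate mice but not their litters, and p-values measure the spread between these samples. Refed libraries of the same letter deviated together (r from 0.313 to 0.356, each best with its own letter). Letters were taken as pairs there, from the data alone, but only in the alternative with the letter as a block. The refed intervals and adjusted p come from fits without pairs, unless the block is named. DESeq2 1.42.0, limma 3.58.1 (voom with quality weights), other scalings and filters, the letter as a block and fits without 1 library were the alternatives.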

Additional observations from a re-analysis of the deposited data

Results flagged for a closer look

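In 90 sets of a gene and a group, 6 had 1 library far from the rest of its group, where chance gives about 1 in 20. Retsat was 1064 CPM in refed control A, the next highest being 935. Aldh1a1 was 991 CPM in fasted knockout E, above 898 in the next, and 976 in refed knockout A, below 1077 in the next. Cyp26a1 was 11.2 CPM in fasted knockout D (next 4.38) and 5.48 in high-fat control E (next 1.72). Cyp26b1 was 2.61 CPM in western diet control A (next 7.39). Leaving out high-fat control E turned the sign of the high-fat Cyp26a1 difference, to 0.40 with an edgeR adjusted p of 0.826.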

How the results depend on the processing

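Counts of the 9 genes called moved as follows, and the cause was not tested. In the fasted pair 2 (Retsat and Aldh1a1) in place of 1 were called with DESeq2, without a filter, with a filter at 1 CPM, with limma-voom and with the replicate block, and 0 to 2 when 1 library was left out. Between diets in controls 0 in place of 1 were called without a filter, and 0 to 1 without 1 library. Between diets in knockouts 1 in place of 0 was called with DESeq2 and limma-voom (Cyp26a1) and with the compared groups alone (Bco1). On the Plvap average 2 were called with DESeq2 and limma-voom (Retsat and Bco1) and 1 (Bco1) without a filter, and 0 to 2 without 1 library. In the fasted less high-fat effect 1 (Retsat) was called with DESeq2 and limma-voom, and 0 to 1 without 1 library. In the Cav1 pair 2 were called without a filter, 1 with limma-voom (Bco1, adjusted p = 0.0338) and 1 with the replicate block (Retsat, adjusted p = 0.0413), and 0 to 1 without 1 library (Bco1, without knockout B). For single genes, 655 of the values from alternatives that left out no library stayed on their side of the threshold, 19 became calls and 1 call was lost. Some uncalled differences changed sign, by less than their SE, as for Aldh1a1 on western diet (0.14, and -0.01 at the lowest).

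The replicate block, used as a pairing in the refed livers, changed the call of none of the 9 genes there and raised the count over all genes from 3 to 30. In the other pairs most letters were not best with their own letter (correlations from -0.262 to 0.374). Those that were are fasted C (0.374) and D (0.217) and Cav1 B (0.092) and D (0.262). The block moved the fasted count over all genes from 289 to 713. Counts over all genes in the fasted, refed, western diet, high-fat and Cav1 pairs were 713, 59, 21, 244 and 939 with DESeq2, 861, 131, 10, 99 and 1279 without a filter and 530, 10, 17, 102 and 704 with limma-voom, and between diets in controls and knockouts 591 and 1695 with DESeq2, 269 and 871 without a filter and 527 and 1751 with limma-voom. With DESeq2, limma-voom and no filter they were 968, 1098 and 612 on the Plvap average, against 794, and 12, 22 and 0 in the fasted less high-fat effect, against 0. Leaving out 1 library moved the Lrat difference relative to stellate genes between -0.59 and -0.33 in the fasted pair, 0.06 and 0.37 after refeeding, -0.32 and -0.11 on western diet, -0.09 and 0.01 on high-fat diet and -0.75 and -0.44 in the Cav1 pair. Rarb, near 1 CPM, and Cyp26a1 on high-fat diet rest on few reads.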
